A study of Mus musculus with 4 samples.

Results

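Transcripts of 10 genes of complement and of microglial activation were followed across the cell classes of mouse spinal dorsal horn, in mice with and without the receptor gene Gpr37l1 and with and without nerve injury. The genes were C1qa, C1qb, C1qc, C3, C4b, Trem2, Tyrobp, Fcer1g, Spp1 and P2rx4, chosen by symbol among the 32285 genes listed in the files, and all 10 were found. Transcripts were counted in nuclei of microdissected dorsal horn, with 4 libraries in all and 1 library per group. The groups were Gpr37l1-/- mice 1 day after spared nerve injury (SNI, a cut of some branches of the sciatic nerve that causes lasting neuropathic pain), Gpr37l1+/+ mice 1 day after SNI, naive Gpr37l1-/- mice and naive Gpr37l1+/+ mice, called knockout SNI, wild-type SNI, knockout naive and wild-type naive here. Wherever 4 values stand in a row they are in this order. The labels give neither age, sex, background strain and way of knocking out the gene, nor the number of animals in a library.

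For 2 of the libraries the treatment tag in the labels contradicts the title, calling the one titled knockout naive injured and the one titled wild-type SNI uninjured. Titles were used here because the names of the libraries bear them out. If the tag held, both knockout libraries would be injured and both wild-type libraries naive, and genotype and injury could not be told apart. With 1 library per group no test was possible, and no p-value is given. Every interval is a 95% interval for counting error only, and ratios describe these libraries, not the conditions.

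Barcodes numbered 28019, 27233, 37552 and 19942, and their total counts were 44079044, 50605908, 69572640 and 35197290 UMIs (unique molecular identifiers, each counting 1 captured transcript). After filters 101102 nuclei remained, at median depths of 1215, 1404, 1437 and 1354 UMIs per nucleus. Pairs of libraries shared 162 to 293 barcodes, 0.546% to 1.05% of either. Gpr37l1 itself had 3 UMIs in astrocyte-like nuclei of the knockout SNI library and 0 in the knockout naive library, against 244 UMIs in the wild-type SNI and 144 in the wild-type naive library. An unnamed cluster set some libraries apart, with 325 nuclei in the knockout SNI, 3830 in the wild-type SNI, 4518 in the knockout naive and 78 in the wild-type naive library. Values given for named classes leave it out, and those given over all kept nuclei or all other kept nuclei include it.

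C1q is the recognition molecule of the classical complement pathway, built from chains encoded by C1qa, C1qb and C1qc, and in the central nervous system microglia are its main source. Once bound, it starts the cleavage of C4 and then of C3, whose fragments tag synapses and debris for removal by phagocytes. TREM2 is a lipid-sensing receptor of microglia that signals through the adaptor TYROBP (DAP12), and FCER1G is the signalling chain of activating Fc receptors. SPP1 (osteopontin) is a secreted ligand of integrins and CD44 made by activated microglia and by some neurons. P2RX4 is an ATP-gated channel known for its increase in spinal microglia after nerve injury in rodents.

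Microglia-like nuclei were 1 cluster of 2391 nuclei that carried all 8 fixed microglia markers (among them Cx3cr1, P2ry12, Csf1r, Inpp5d, Apbb1ip, Ptprc and Dock8) in every library, with 863 nuclei in the knockout SNI, 523 in the wild-type SNI, 595 in the knockout naive and 410 in the wild-type naive library. How much microglial RNA these nuclei held differed between libraries. The markers together stood at 4562, 4386, 2791 and 7456 CPM (UMIs of a gene per 1000000 UMIs of the class, mitochondrial genes left out). Markers of neurons in the same nuclei stood at 11348, 11383, 13397 and 6093 CPM, lowest where the microglia markers were highest. For that reason each member is given on a pair of scales, as CPM and as UMIs per 100 UMIs of the 8 microglia markers. Markers of other myeloid cells were rare in these nuclei. The 7 border macrophage markers had 27, 28, 1 and 9 UMIs, with Cd209f at 0 in every library, the 6 neutrophil markers had 1, 2, 6 and 0, and the 5 monocyte markers had 1, 0, 0 and 0.

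**Figure D1:**
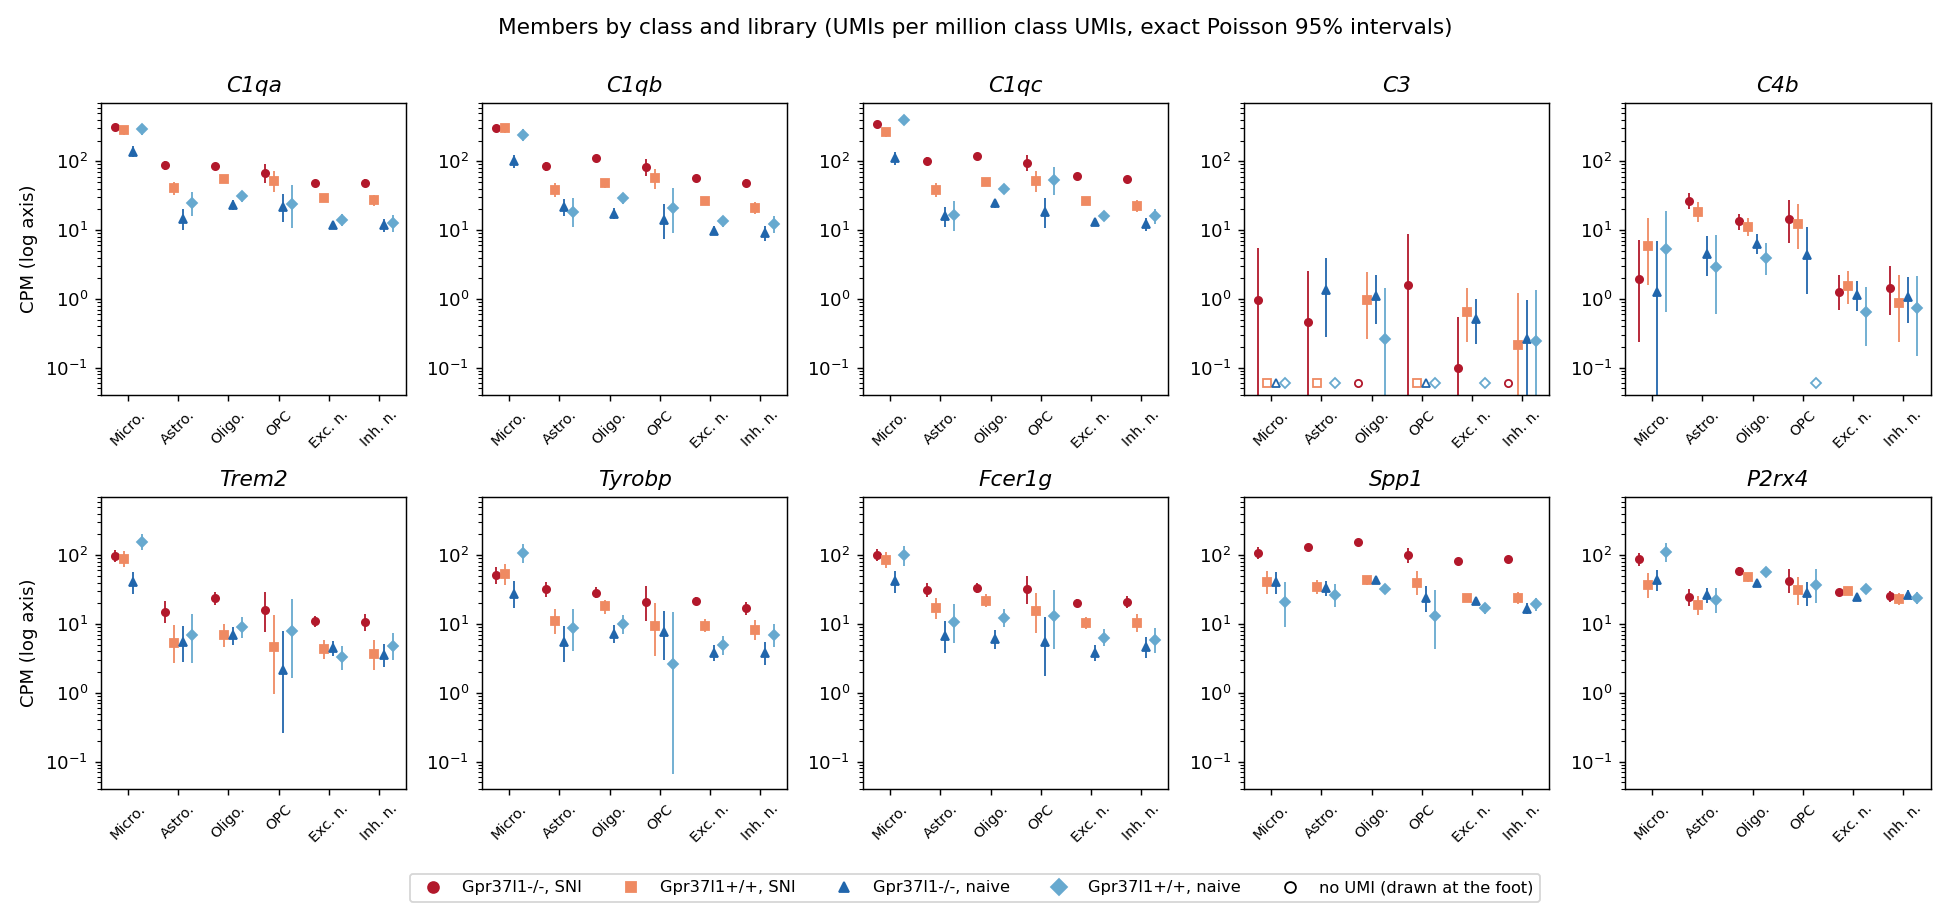
Level of each member (CPM, log axis) in 6 cell classes, with exact Poisson 95% intervals; each colour and marker is 1 library and open markers are classes with no UMI. Micro., microglia-like; Astro., astrocyte-like; Oligo., oligodendrocyte-like; OPC, oligodendrocyte precursor-like; Exc. n. and Inh. n., excitatory and inhibitory neuron-like nuclei. The C1q chains, Trem2 and Fcer1g were highest in microglia-like nuclei of every library, C4b in astrocyte-like nuclei of the injured libraries reached 26.6 and 18.5 CPM, and Spp1 was higher in every class of the knockout SNI library than in the same class of the other libraries.

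Over the 4 libraries together, the C1q chains and Trem2 were the most concentrated in microglia-like nuclei. The order differed in single libraries. Against oligodendrocyte-like nuclei of the knockout naive library, Fcer1g was 6.85-fold higher, Trem2 5.88-fold and C1qb 5.78-fold. Over the 4 libraries C1qa was 9.09-fold, C1qb 8.48-fold and C1qc 8.46-fold higher as CPM in microglia-like nuclei than in all other kept nuclei, and Trem2 13.2-fold. Fcer1g was 7.47-fold and Tyrobp 5.50-fold higher there, whereas P2rx4 at 2.14-fold and Spp1 at 1.56-fold showed little preference. C4b at 1.08-fold had none.

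C1qa, C1qb and C1qc lie side by side on the minus strand of chromosome 4, at chr4:136895917-136898803, chr4:136880129-136886187 and chr4:136889804-136893065 (GRCm38, GENCODE vM21). Their RefSeq promoters (GRCm38.p6) are shown because these chains, and Trem2 with them, were the members most concentrated in microglia-like nuclei over the 4 libraries together. Each line holds the 250 bases before the RefSeq start of the gene, read 5′ to 3′ on the strand of the gene. They lie at chr4:136886201-136886450 for C1qb, chr4:136892915-136893164 for C1qc and chr17:48346151-48346400 for Trem2. For C1qb and C1qc the RefSeq start differs from the GENCODE one, and the C1qc window lies partly inside the GENCODE gene given above. Capitals mark GAGGAA, a core to which the myeloid factor PU.1 is known to bind, or its reverse complement TTCCTC.
C1qb: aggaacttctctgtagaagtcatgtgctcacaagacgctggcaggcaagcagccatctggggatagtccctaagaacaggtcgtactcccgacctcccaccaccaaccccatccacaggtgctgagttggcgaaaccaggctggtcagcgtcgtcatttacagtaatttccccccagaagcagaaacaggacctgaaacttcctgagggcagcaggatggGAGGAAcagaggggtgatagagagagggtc
C1qc: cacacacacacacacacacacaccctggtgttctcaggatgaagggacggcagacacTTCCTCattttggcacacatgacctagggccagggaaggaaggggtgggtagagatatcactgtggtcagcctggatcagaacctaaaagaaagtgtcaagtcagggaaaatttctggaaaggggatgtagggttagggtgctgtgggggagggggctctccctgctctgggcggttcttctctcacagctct
Trem2: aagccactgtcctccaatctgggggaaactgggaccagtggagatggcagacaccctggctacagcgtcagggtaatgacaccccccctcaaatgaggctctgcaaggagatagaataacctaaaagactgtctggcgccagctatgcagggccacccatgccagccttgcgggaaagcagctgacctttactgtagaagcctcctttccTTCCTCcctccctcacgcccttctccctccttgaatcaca
Each of these 3 windows held 1 match, at position -30 in C1qb, -193 in C1qc and -40 in Trem2. Positions are counted back from the RefSeq start to the first base of the match. Of all 32851 promoter windows of the same length, 23.3% held GAGGAA on either strand. In C1qc the match was part of the longer GAGGAAGT, held by 2.44% of all windows. The window of Fcer1g held no match, and of the 2 windows of Spp1 the first held 1, at -113, which was also part of the longer run. A match is a run of letters and says nothing of binding.

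C1q in microglia-like nuclei was lower as CPM in the knockout naive library than in any of the other 3, whereas per UMI of the 8 microglia markers together the naive libraries lay within the counting error of each other. The 3 chains together had 979 UMIs in the knockout SNI, 575 in the wild-type SNI, 278 in the knockout naive and 358 in the wild-type naive library. As CPM these were 959 (900 to 1021), 847 (779 to 919), 350 (310 to 393) and 940 (845 to 1042). The knockout naive library stood alone at the low end and the other 3 lay close together. The log2 ratio of knockout to wild type was -1.43 (-1.66 to -1.20) between naive libraries and 0.18 (0.03 to 0.33) after SNI. Set against the naive library of its genotype, the SNI library had -0.15 (-0.34 to 0.04) for wild type and 1.46 (1.26 to 1.65) for the knockout.

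Per 100 microglia marker UMIs, the C1q chains stood at 21.02 in the knockout SNI, 19.3 in the wild-type SNI, 12.5 in the knockout naive and 12.6 in the wild-type naive library. On this scale both injured libraries were high and both naive libraries were low. The log2 ratio of SNI to naive was 0.75 (0.55 to 0.94), or 1.68-fold, for the knockout libraries and 0.62 (0.42 to 0.81), or 1.53-fold, for the wild-type ones. Over all genes tested, the median ratio of SNI to naive on this scale was -0.68 for the knockout. For wild type that median was 0.81, above the ratio of C1q. The markers themselves stood at 4386 CPM in the wild-type SNI and 7456 CPM in the wild-type naive library. The ratio of knockout to wild type was 0.12 (-0.03 to 0.27) after SNI and -0.01 (-0.24 to 0.22) without injury. Against each of the 8 markers singly, C1q was higher after injury for 8 of 8 in wild type, with log2 ratios of 0.23 to 0.95, and for 7 of 8 in the knockout, with -0.05 to 1.13. The genotype ratio depended on the marker, being above 0 for 5 of 8 after SNI, from -0.19 to 0.71, and for 4 of 8 without injury, from -0.42 to 0.59.

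The result per marker was much the same against a wider set of microglial transcripts. A set of 331 genes at least 4-fold higher in microglia-like than in all other kept nuclei, with at least 100 UMIs and without the members, took 6.84%, 6.18%, 4.22% and 10.8% of the UMIs of microglia-like nuclei. The set includes all 8 markers and was picked from these same nuclei, so its scale is not independent of the marker scale. Per UMI of that set, the C1q ratio of SNI to naive was 0.76 (0.57 to 0.96) for the knockout and 0.66 (0.46 to 0.85) for wild type. On that scale knockout to wild type gave 0.03 (-0.12 to 0.18) after SNI and -0.07 (-0.30 to 0.16) without injury.

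**Figure D2:**
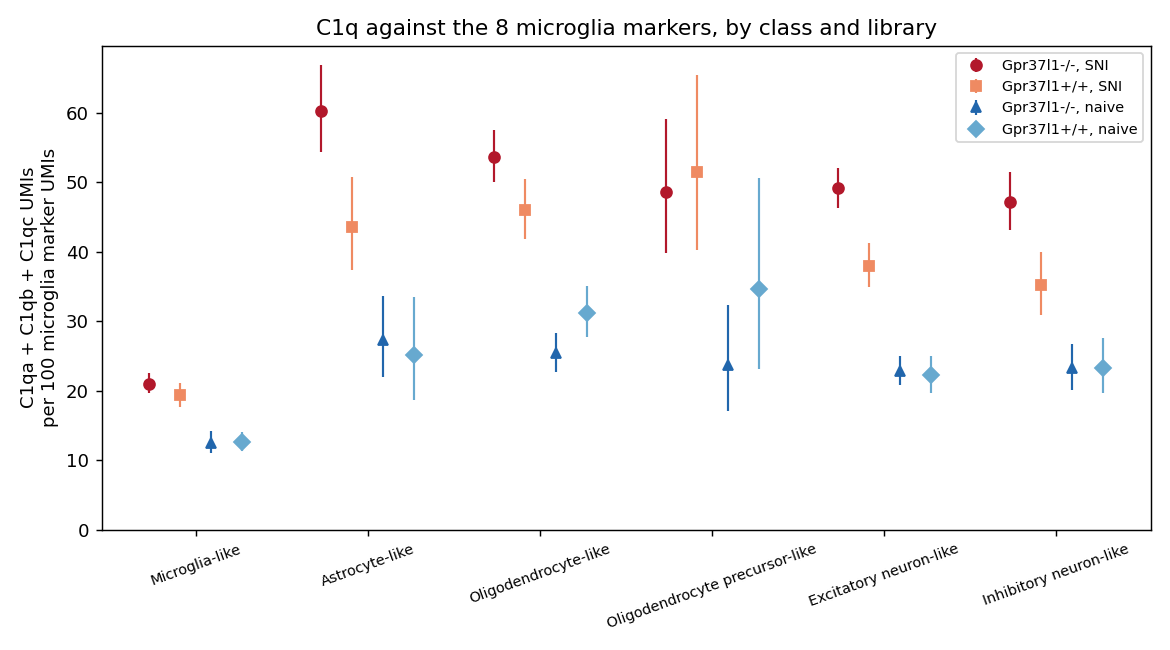
UMIs of C1qa, C1qb and C1qc together per 100 UMIs of the 8 microglia markers (linear axis) in 6 cell classes, with 95% counting intervals; each colour and marker is 1 library. In microglia-like nuclei the injured libraries stood at 21.02 and 19.3 and the naive ones at 12.5 and 12.6, and in excitatory neuron-like nuclei the injured libraries stood at 49.2 and 38.0 and the naive ones at 22.8 and 22.2.

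The injury ratio per marker UMI differed in size between the chains, and of the 3 only C1qb was at least 1.5-fold higher, with an interval that leaves out no difference, in both genotypes. C1qb, the B chain, had 308, 204, 80 and 93 UMIs in microglia-like nuclei, or 302, 300.5, 101 and 244 CPM. Its log2 ratio of SNI to naive per marker UMI was 0.88 for the knockout and 1.06 for wild type, the largest of the 3 chains in wild type. C1qa, the A chain, had 320, 192, 110 and 111 UMIs, or 313, 283, 138 and 291 CPM, and C1qc, the C chain, had 351, 179, 88 and 154 UMIs, or 344, 264, 111 and 404 CPM. Per marker UMI the SNI to naive ratio of C1qa was 0.47 (0.15 to 0.80) in the knockout, under 1.5-fold, and 0.72 (0.38 to 1.07) in wild type. That of C1qc was 0.93 (0.59 to 1.28) in the knockout and 0.15 (-0.17 to 0.47) in wild type, where it did not clear the counting error. Between naive libraries C1qc per marker UMI was lower in the knockout at -0.45 (-0.85 to -0.06), under 1.5-fold, and C1qa stood at 0.34 (-0.05 to 0.74). C1qc made up 31.7% of C1q UMIs in microglia-like nuclei of the knockout naive library, against 43.0% in the wild-type naive library. In excitatory neuron-like nuclei it made up 37.6% in the knockout naive and 37.0% in the wild-type naive library.

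Most C1q UMIs lay outside the microglia-like nuclei. Of the C1q UMIs in kept nuclei, microglia-like nuclei held 13.02% (12.3 to 13.8) in the knockout SNI, 12.4% (11.4 to 13.4) in the wild-type SNI, 10.5% (9.35 to 11.7) in the knockout naive and 20.2% (18.4 to 22.2) in the wild-type naive library, and nuclei of unnamed clusters held 26.8%, 42.0%, 36.9% and 23.3%. The unnamed nuclei include a cluster of 541, with 240, 111, 124 and 66 nuclei, whose leading genes include Inpp5d, Ly86, Runx1 and Dock8. It stayed unnamed because it also carried oligodendrocyte markers. Its part in the C1q UMIs is not given, so the microglia-like shares may leave out microglial nuclei. In excitatory neuron-like nuclei, which should lack C1q transcription, the chains stood at 168, 82.6, 35.0 and 43.6 CPM. They stood at 152, 70.9, 32.8 and 41.0 CPM in inhibitory neuron-like nuclei, and at 314, 154, 65.0 and 99.0 CPM in oligodendrocyte-like nuclei. In all of these classes the knockout SNI library was highest and the wild-type SNI library next. Microglia-like nuclei exceeded excitatory neuron-like nuclei 5.70-fold, 10.3-fold, 9.995-fold and 21.5-fold as CPM.

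The ratio of C1q to microglia markers was higher after injury in neuron-like nuclei as well. In excitatory neuron-like nuclei there were 49.2, 38.0, 22.8 and 22.2 C1q UMIs per 100 microglia marker UMIs, above the values in microglia-like nuclei of the same library in every case. The log2 ratio of SNI to naive on this scale was 1.11 (0.97 to 1.25) for the knockout and 0.77 (0.59 to 0.96) for wild type, and knockout to wild type gave 0.37 (0.25 to 0.50) after SNI and 0.04 (-0.16 to 0.24) without injury. Astrocyte-like nuclei gave injury ratios of 1.15 (0.86 to 1.45) for the knockout and 0.79 (0.38 to 1.22) for wild type. The values in neuron-like nuclei come from other barcodes than those in microglia-like nuclei but from the same libraries. How much free RNA each class holds was not tested, because empty droplets were not analysed here.

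Several members stood higher after injury in neuron-like nuclei too. In excitatory neuron-like nuclei 7 of the 9 members with enough UMIs (C1qa, C1qb, C1qc, Trem2, Tyrobp, Fcer1g and Spp1) were at least 1.5-fold higher, with an interval that leaves out no difference, in the knockout SNI than in the wild-type SNI library, where 2.16% of all genes were. The same 7 were higher in the knockout SNI than in the knockout naive library, where 10.9% of genes were. In the wild-type SNI against the wild-type naive library 5 of 8 were higher (C1qa, C1qb, C1qc, Tyrobp and Fcer1g), where 2.9% of genes were. Between naive libraries 1 of 9, Fcer1g, was lower in the knockout, where 13.6% of genes were. P2rx4 passed in none of the 4 comparisons in these nuclei. Inhibitory neuron-like nuclei gave the same 7 members of 8, higher in the knockout SNI than in the wild-type SNI library, where 1.89% of all genes were, and than in the knockout naive library, where 9.43% were. There 3 of 8 (C1qa, C1qb and Fcer1g) were higher in the wild-type SNI than in the wild-type naive library, where 3.07% of genes were, and 1 of 8, Tyrobp, was lower in the knockout naive than in the wild-type naive library, where 11.6% were.

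C4b and C3, which encode the next components of the pathway, were not concentrated in microglia-like nuclei. C4b (chr17:34728380-34743882, minus strand) reached its highest level in astrocyte-like nuclei of the injured libraries, with 58 UMIs in the knockout SNI, 38 in the wild-type SNI, 10 in the knockout naive and 3 in the wild-type naive library, or 26.6, 18.5, 4.53 and 2.93 CPM. In oligodendrocyte-like nuclei it had 54, 46, 41 and 15 UMIs, or 13.4, 11.1, 6.37 and 3.94 CPM, above the astrocyte-like nuclei in both naive libraries. Both glial classes had their higher levels after injury in both genotypes. In astrocyte-like nuclei the log2 ratio of SNI to naive was 2.56 (1.58 to 3.69) in the knockout, where 7.79% of 12608 genes were higher by the rule used here, and 2.66 (1.00 to 5.00) in wild type, where 7.29% of 11701 genes were. That rule asks for at least 1.5-fold, an interval that leaves out no difference and 20 UMIs over the pair of libraries.

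In oligodendrocyte-like nuclei the injury ratio of C4b was 1.07 (0.46 to 1.69) for the knockout, where 8.14% of genes were higher by the same rule, and 1.49 (0.62 to 2.44) for wild type, where 6.86% were. Over oligodendrocyte-like nuclei with at least 1000 UMIs and 500 genes the knockout ratio was 0.29 (-0.85 to 1.34). Genotype ratios of C4b did not clear the counting error in either class. For astrocyte-like nuclei they were 0.53 (-0.09 to 1.15) after SNI and 0.63 (-1.33 to 3.13) without injury, and for oligodendrocyte-like nuclei 0.27 (-0.32 to 0.87) and 0.69 (-0.19 to 1.65). Oligodendrocyte precursor-like nuclei had 9, 8, 4 and 0 UMIs. Excitatory neuron-like nuclei had 1.28, 1.52, 1.15 and 0.64 CPM of C4b in the same order, with intervals that overlap, and microglia-like nuclei had 2, 4, 1 and 2 UMIs in all. Mice carry a near-identical copy, C4a, and reads that fit both copies may have been split or dropped in counting, so the C4b level is uncertain.

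**Figure D3:**
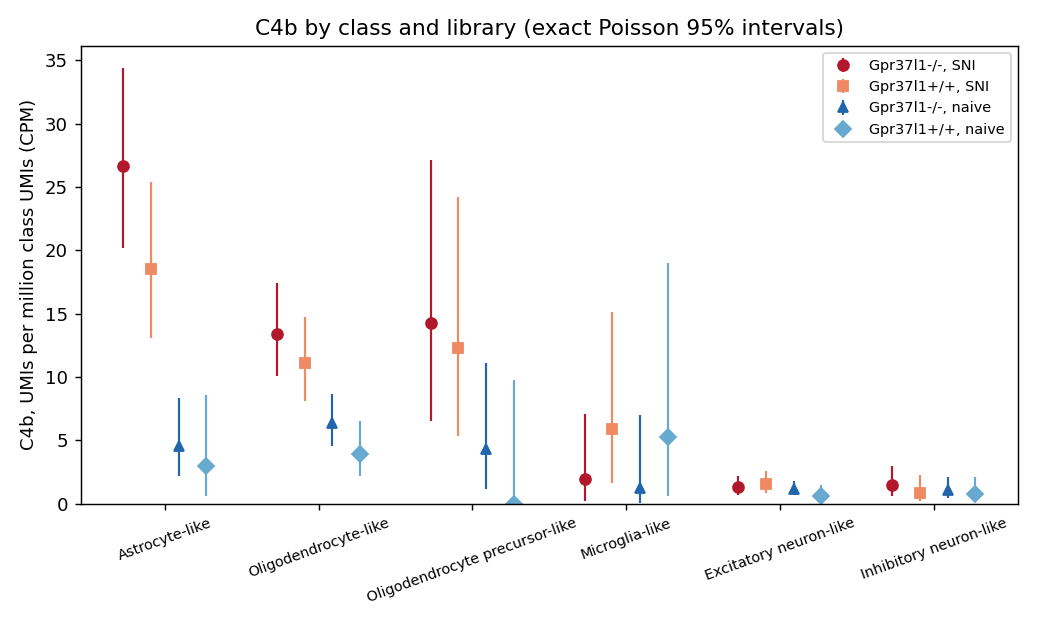
C4b level (CPM, linear axis) in 6 cell classes with exact Poisson 95% intervals; each colour and marker is 1 library. Astrocyte-like nuclei of the injured libraries stood at 26.6 and 18.5 CPM and of the naive libraries at 4.53 and 2.93 CPM, and neuron-like nuclei stood at 1.52 CPM or less in every library.

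C3, the central component at chr17:57203970-57228136, was barely detected. All kept nuclei together had 12, 18, 34 and 4 UMIs, and microglia-like nuclei had 1 in the knockout SNI library and 0 in the other 3. In those 3 libraries a count of 0 allows up to 3 UMIs, which is 4.42 CPM in the wild-type SNI, 3.77 CPM in the knockout naive and 7.88 CPM in the wild-type naive library. No class gave enough C3 UMIs to set libraries against each other.

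As CPM, Trem2 and its adaptor Tyrobp were highest in the wild-type naive and lowest in the knockout naive library, as the microglia markers were. Trem2 (chr17:48346401-48354147, plus strand) had 101, 60, 32 and 60 UMIs, or 98.9, 88.4, 40.2 and 158 CPM. Per 100 marker UMIs it stood at 2.17, 2.01, 1.44 and 2.11, lowest in the knockout naive library. The ratio of knockout to wild type between naive libraries on this scale, -0.55 (-1.22 to 0.09), did not clear the counting error. SNI to naive per marker UMI was 0.59 (0.00 to 1.21) in the knockout and -0.07 (-0.61 to 0.47) in wild type. Tyrobp (chr7:30413760-30417585, plus strand) had 52, 36, 22 and 41 UMIs, or 50.9, 53.0, 27.7 and 108 CPM, and per 100 marker UMIs 1.12, 1.21, 0.99 and 1.44. None of its ratios per marker UMI cleared the counting error.

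Fcer1g (chr1:171229572-171234365, minus strand) had 103, 58, 33 and 38 UMIs in microglia-like nuclei, or 101, 85.4, 41.5 and 99.8 CPM, and 2.21, 1.95, 1.49 and 1.34 UMIs per 100 marker UMIs. Both injured libraries were above both naive ones on the second scale, with log2 ratios of 0.57 for the knockout and 0.54 for wild type. Neither passed the rule per marker UMI.

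P2rx4 (chr5:122707544-122729738, plus strand) differed between genotypes after injury, as did Spp1. It had 89 UMIs in microglia-like nuclei of the knockout SNI library, 25 in the wild-type SNI, 35 in the knockout naive and 42 in the wild-type naive, or 87.2, 36.8, 44.0 and 110 CPM. Per 100 marker UMIs it stood at 1.91, 0.84, 1.58 and 1.479, with the wild-type SNI library alone at the low end. Knockout to wild type in SNI libraries was 1.24 (0.59 to 1.95) as CPM and 1.19 per marker UMI, and it was above 0 against each of the 8 markers singly, from 0.87 to 1.78. SNI to naive in wild type was -1.58 (-2.36 to -0.83) as CPM and -0.82 per marker UMI, below 0 against each of the 8 markers. In the knockout the SNI to naive ratio was 0.99 (0.41 to 1.59) as CPM and 0.28 per marker UMI. The genotype ratio after SNI rests on few UMIs: over the 360 and 216 microglia-like nuclei with at least 1000 UMIs and 500 genes in the knockout SNI and wild-type SNI libraries it was 0.54 (-0.30 to 1.44).

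In neuron-like nuclei P2rx4 lay within a narrow range. Excitatory neuron-like nuclei had 28.7, 30.03, 24.6 and 32.3 CPM and inhibitory neuron-like nuclei 25.5, 23.2, 26.8 and 24.3 CPM. Oligodendrocyte-like nuclei were the next highest class, at 58.9, 47.6, 39.0 and 57.0 CPM. Microglia-like nuclei of the wild-type SNI library stood at 36.8 CPM. Their log2 ratio to the oligodendrocyte-like nuclei of the same library, -0.37 (-1.03 to 0.23), did not clear the counting error. Of all P2rx4 UMIs in kept nuclei, microglia-like nuclei held 7.01%, 1.88%, 2.09% and 4.14%.

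Spp1 (chr5:104435118-104441050, plus strand, with the predicted gene Gm42793 overlapping it) was spread over all classes. In microglia-like nuclei it had 111, 28, 32 and 8 UMIs, or 109, 41.2, 40.2 and 21.003 CPM, highest in the knockout SNI library. In that library excitatory neuron-like nuclei had 81.8 CPM, inhibitory neuron-like nuclei 87.3, astrocyte-like nuclei 131 and oligodendrocyte-like nuclei 155 CPM, against 23.9, 23.9, 34.6 and 43.6 CPM in the same classes of the wild-type SNI library. Microglia-like nuclei of the knockout SNI library were below oligodendrocyte-like nuclei at -0.51 (-0.81 to -0.21), whereas their ratio to astrocyte-like nuclei, -0.27 (-0.60 to 0.05), and to oligodendrocyte precursor-like nuclei, 0.12 (-0.34 to 0.59), did not clear the counting error. As CPM, knockout to wild type in microglia-like nuclei of SNI libraries was 1.40 (0.79 to 2.05). SNI to naive was 1.43 (0.86 to 2.05) in the knockout and 0.97 (-0.20 to 2.32) in wild type. Per 100 marker UMIs Spp1 stood at 2.38, 0.94, 1.44 and 0.28. On that scale SNI to naive was 0.73 (0.15 to 1.34) in the knockout and 1.74 (0.57 to 3.08) in wild type. Knockout to wild type was 1.34 (0.73 to 1.99) after SNI and 2.36 (1.21 to 3.68) between naive libraries. The wild-type naive library had only 8 UMIs, and 73.8% of all genes were higher between naive libraries on that scale.

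A few barcodes held a large part of the Spp1 in the knockout SNI library. There, 12 barcodes with at least 10 Spp1 UMIs, all above the limit of 5% mitochondrial UMIs and so left out of the kept nuclei, held 1121 of 5024 Spp1 UMIs, which is 22.3%. In the wild-type SNI library 2 such barcodes held 151 of 1583, or 9.54%, and in the wild-type naive library there was none. In the knockout naive library 1 barcode held 24, and it lay below the limit at 1.65% and had 0 UMIs of cholinergic neuron markers. These 15 barcodes together carried 394 UMIs of cholinergic neuron markers, of which Slc5a7, the choline transporter, had 190, and 22 UMIs of microglia markers, among 214420 UMIs. They also held 481 UMIs of Calca, the gene of the neuropeptide CGRP, and 37 of Atf3, a transcription factor known from injured neurons. Isl1, a developmental motor neuron factor, was at 0 in them. What part these barcodes have in the Spp1 of other classes was not tested.

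**Figure D4:**
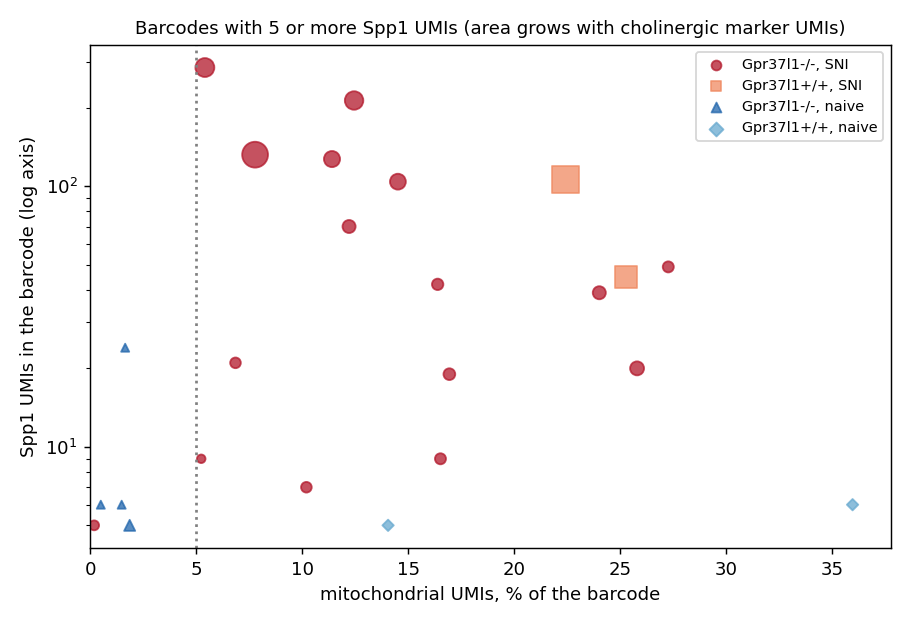
Spp1 UMIs (log axis) against the mitochondrial share of UMIs (%) for the 24 barcodes with at least 5 Spp1 UMIs; colour and marker give the library and the area grows with the UMIs of cholinergic neuron markers. The dotted line is the 5% limit of the filter. Of the 16 barcodes of the knockout SNI library 15 lie above the limit, and the highest holds 285 Spp1 UMIs.

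In microglia-like nuclei 8 of the 10 members had 20 UMIs or more in each comparison, and C3 and C4b did not. As CPM, 7 of these 8 were lower in the knockout naive than in the wild-type naive library and 0 were higher, where 15.8% of 8597 genes were lower. SNI to naive in the knockout gave 8 higher, where 7.88% of 10208 genes were, and SNI to naive in wild type gave 4 lower (C1qc, Trem2, Tyrobp and P2rx4), where 8.62% of 8491 genes were. Knockout to wild type in SNI libraries gave 2 higher, Spp1 and P2rx4, where 2.88% of 10130 genes were. With predicted doublets kept this count was 8, and in nuclei thinned to 1000 UMIs it was 0, without a share over all genes for either setting. The 331 microglia-enriched genes moved in the same directions, with 94.9% lower in the knockout naive than in the wild-type naive library, 59.8% higher in the knockout after injury and 65.9% lower in wild type after injury. The comparisons share libraries, since each library stands in 2 of the 4.

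Per microglia marker UMI, 0 members were lower and 1, Spp1, was higher in the knockout naive than in the wild-type naive library, where 6.65% of the 331 microglia-enriched genes were higher and 3.32% lower. Over all genes tested 73.8% were higher on this scale. SNI to naive gave 3 higher in wild type (C1qa, C1qb and Spp1) and 1 lower (P2rx4), where 8.46% of the enriched genes were higher and 9.67% lower, and over all genes 47.8% and 0.73%. In the knockout it gave 4 higher (C1qb, C1qc, Trem2 and Spp1), where 8.16% of the enriched genes and 0.803% of all genes were higher. Knockout to wild type after SNI again gave Spp1 and P2rx4, where 10.9% of the enriched genes and 2.09% of all genes were higher.

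**Figure D5:**
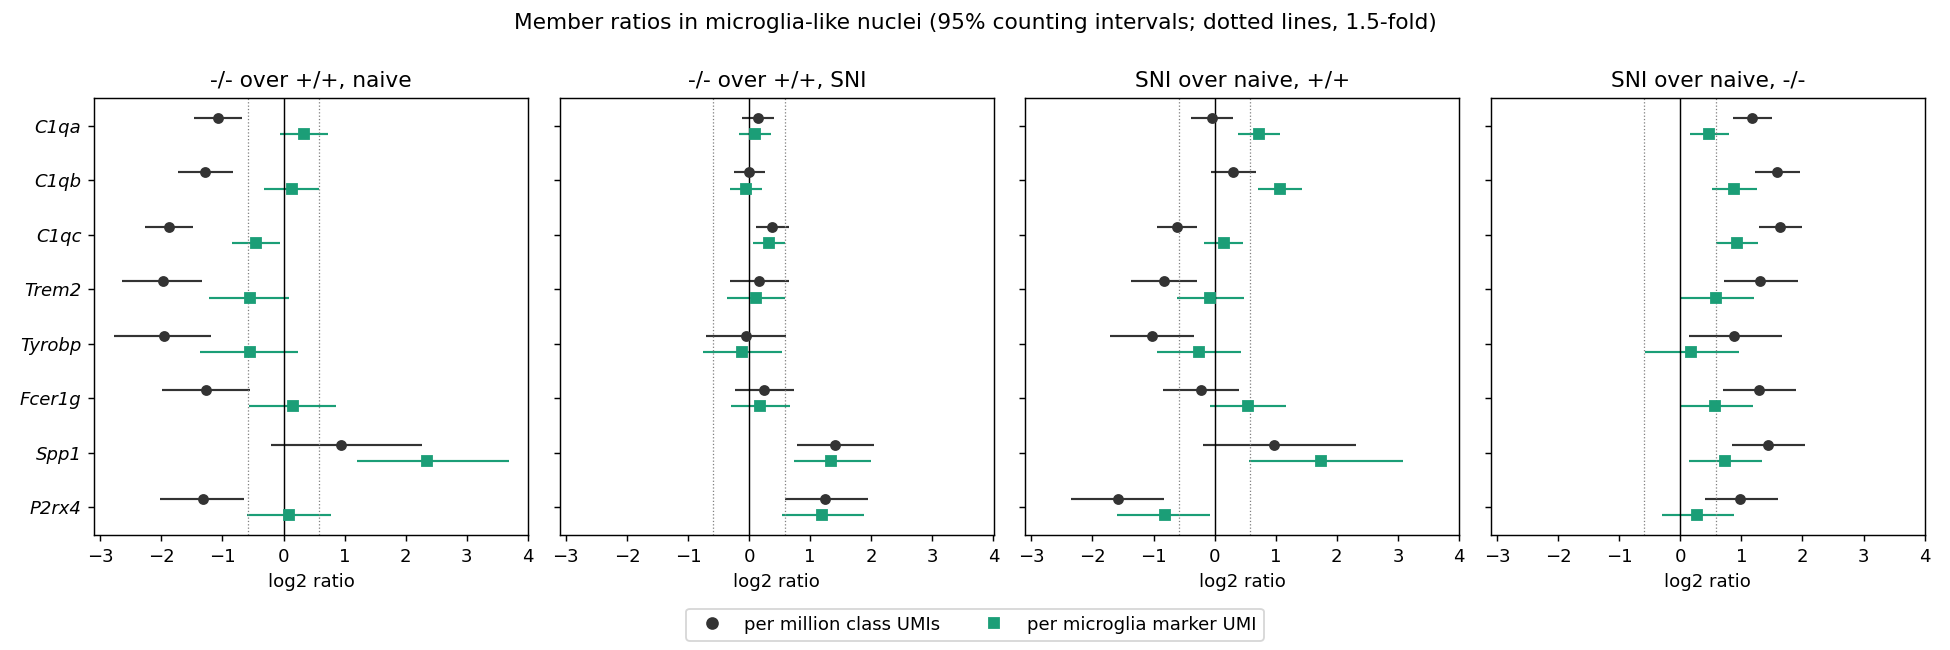
Log2 ratios of 8 members in microglia-like nuclei for the 4 comparisons, as CPM (circles) and per microglia marker UMI (squares), with 95% counting intervals; dotted lines mark 1.5-fold. The circles lie mostly left of 0 between naive libraries and right of 0 for SNI over naive in the knockout, and the squares of C1qb lie right of 0 for SNI over naive in both genotypes.

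Other genes of the pathways were counted in microglia-like nuclei by the same rule. Of 9 complement receptors, 2 had enough UMIs between naive libraries, and both were lower in the knockout naive library as CPM: Itgam, a chain of complement receptor 3, at 123 against 305 CPM, and its partner Itgb2 at 11.3 against 44.6 CPM. After injury in the knockout both were higher, Itgam at 387 against 123 CPM in the naive library. Itgam was also higher per marker UMI at 0.94 (0.62 to 1.28). As CPM, 94.9% of the microglia-enriched genes were lower between naive libraries and 59.8% were higher after injury in the knockout. Of 15 regulators, Csmd1, a membrane inhibitor of complement, stood at 2209 CPM in the knockout naive and 945 CPM in the wild-type naive library. It passed the rule as higher in the knockout naive library, as did 12.4% of all genes. Markers of neurons in these nuclei, given above, were also higher in that library, and whether this Csmd1 comes from microglia was not tested. Csmd3, a relative of Csmd1, was lower in the wild-type SNI than in the wild-type naive library at 2203 against 4542 CPM. There 8.62% of all genes were lower. Of 24 further components only Colec12, a scavenger collectin, had enough UMIs, with 16, 56, 11 and 17 UMIs; it was highest in the wild-type SNI library, and knockout to wild type after SNI was -2.40 (-3.30 to -1.57).

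Among 14 Fc receptor and ITAM genes, 10 had enough UMIs between the naive libraries. As CPM 9 of them were lower in the knockout naive library, where 94.9% of the microglia-enriched genes were. Per marker UMI 1 of 10, Fcgr1, was lower, where 3.32% of the enriched genes were. Fcgr1, a high-affinity IgG receptor, had 27, 31, 4 and 17 UMIs, and Fcgr2b, the inhibitory one, was higher after injury in the knockout at 1.37 (0.19 to 2.78) per marker UMI. Of the 13 measured genes of TREM2 signalling and disease-associated microglia, 9 were lower as CPM in the same comparison, whereas per marker UMI 0 were lower and 5 were higher (Apoe, Ctsb, Ctsd, Fth1 and Timp2), where 6.65% of the enriched genes and 73.8% of all genes were. After injury in the knockout 8 of 15 were higher as CPM, where 59.8% of the enriched genes and 7.88% of all genes were. Per marker UMI Plcg2, an enzyme downstream of TREM2, was higher at 0.73 (0.35 to 1.13), where 0.803% of all genes were. Ctsb and Timp2 were lower on that scale, where 4.53% of the enriched genes and 43.6% of all genes were. Among 14 homeostatic genes 12 were lower between naive libraries as CPM, where 94.9% of the enriched genes were. Per marker UMI Fcrls and Olfml3 were higher after injury in both genotypes, Fcrls at 2.56 (1.58 to 3.72) for the knockout and 1.58 (0.69 to 2.57) for wild type. Gpr34 was lower after injury in wild type at -1.37 (-1.96 to -0.80) per marker UMI.

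Of 16 genes of P2X4 and microglial pain signalling, Irf8, a transcription factor known to act upstream of P2rx4 in mouse microglia, stood at 143, 92.8, 52.8 and 155 CPM. It was higher in the knockout SNI than in the wild-type SNI library at 0.62 (0.19 to 1.07) as CPM, and at 0.57 (0.13 to 1.02) per marker UMI, which was under 1.5-fold. P2ry6, a UDP receptor, was lower there at -0.67 (-1.07 to -0.27) as CPM. Of the 13 listed genes with enough UMIs there, 1 was higher and 1 lower as CPM. In that comparison 13% of the microglia-enriched genes and 2.88% of all genes were higher, and 4.23% and 5.09% were lower. Among 9 receptors of osteopontin Itgb5, an integrin chain, was lower between naive libraries at -1.32 (-1.57 to -1.08) and higher after injury in the knockout at 0.93 (0.71 to 1.15), both as CPM. In these comparisons 94.9% of the microglia-enriched genes were lower and 59.8% were higher. Of the receptors with enough UMIs, 3 of 5 were lower and 3 of 6 were higher. Among 10 cell cycle genes 3 had enough UMIs after injury in the knockout, of which Top2a, a topoisomerase of dividing cells, had 25 UMIs in the knockout SNI and 4 in the knockout naive library. Of these 3 only Top2a was higher by the rule as CPM, where 7.88% of all genes and 59.8% of the microglia-enriched genes were.

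Over 28 combinations of class and library, the genes whose log2(CPM + 1) was most like that of C1q included Ctss (Pearson r = 0.967), Clic1 (0.964), Ly86 (0.930) and Fcrls (0.929), among 14605 genes. Those most like C4b were Fbxo2 (0.842), Kcng4 (0.786), Atp6v1g1 (0.786), Rheb (0.784) and Slc39a7 (0.778). The points share libraries and depth.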

How the data were processed

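Raw UMI counts per gene and barcode were deposited for 4 libraries (10x 3′ chemistry on nuclei, per the labels' protocols). The software was Cell Ranger 7.0.0 per the file headers, and the submitters' processing notes give GRCm38, Seurat 4.3.0 and R 4.3.0. Whether intronic reads were counted and how many animals were used are not stated in the labels, and levels of different genes are not compared. Of 32285 genes 32158 matched GENCODE vM21 for coordinates.

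The filter asked for 300 genes or more and less than 5% mitochondrial UMIs, and 552 of 112746 barcodes failed it. In each library the nuclei in the top 10% of simulated doublet scores (2 simulated doublets per nucleus) were left out, which marked 9.81% to 9.97%. The rest were clustered jointly without batch correction (3000 variable genes, with members, listed pathway genes, mitochondrial genes and Malat1 left out, 40 principal components, 20 neighbours, Leiden resolution 1) with Python 3.11.15, numpy 2.4.6, scipy 1.17.1 and igraph 0.11.9. For a class name, 66.7% of the fixed markers had to exceed other nuclei at least 2-fold, and the mean over them had to reach 1 log2 unit; clusters that also carried the markers of another class stayed unnamed, as did neuron clusters with 5 or more of their 10 leading genes among those of glial clusters. Excitatory and inhibitory neurons were told apart by marker means 0.8 log2 units apart. Rebuilt names may differ from those of the study.

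Counts were summed per class and library. Levels have exact Poisson, shares Clopper-Pearson and ratios exact conditional binomial 95% intervals, and a library without a UMI of a gene was given the floor of 3. A ratio passed at 1.5-fold or more with an interval leaving out no difference and 20 UMIs over the pair. The intervals were tested on simulated data. Named genes are the 10 members, and of each list up to 4 genes per comparison with the largest passing ratio, or genes passing in both genotypes or both injury states; the genes most like C1q and C4b needed 200 UMIs. Of these the text gives examples. Some genes that the rule names are not reported here. The members and lists were chosen with earlier results of these data known. The ratios per marker UMI between libraries, the microglia-enriched set, the subtraction of the neuron level, the removal of shared barcodes, the rule on leading genes of neuron clusters and the barcodes rich in Spp1 were chosen after seeing the data. Promoters matched 7 of 10 members by symbol (not C1qa, C4b and Tyrobp).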

Additional observations from a re-analysis of the deposited data

Results flagged for a closer look

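For 4 members the ratio of SNI to naive in microglia-like nuclei was above 0 in the knockout and below 0 in wild type as CPM, with both intervals clear of 0. The knockout minus wild-type difference of the log2 ratios was 2.25 for C1qc, 2.13 for Trem2, 1.90 for Tyrobp and 2.57 for P2rx4. The difference itself was not tested, since each group is 1 library. Per microglia marker UMI the differences were 0.78, 0.66, 0.43 and 1.09, and for no member did both intervals lie clear of 0 on opposite sides.

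In the 552 barcodes left out by the filter on genes and mitochondrial share, some members stood above their level in such barcodes of the wild-type naive library. Others did not. P2rx4 stood at 29.6 CPM in the knockout SNI and 29.9 CPM in the wild-type SNI library, against 32.4 CPM in the wild-type naive library. Spp1 stood at 3855 CPM in the knockout SNI and 939 CPM in the wild-type SNI library, against 101 CPM in the wild-type naive library. C1qa stood at 108 CPM in the wild-type SNI library, against 32.4 CPM in the wild-type naive library. C1qb stood at 92.1 CPM (28 UMIs) in the knockout SNI and 83.7 CPM (14 UMIs) in the wild-type SNI library. In the wild-type naive library it stood at 10.8 CPM (2.22 to 31.5), on 3 UMIs. Trem2 stood at 46.1 CPM (14 UMIs) in the knockout SNI library, against 3.6 CPM (0.09 to 20.0), on 1 UMI, in the wild-type naive library. C1qb and Trem2 had 0 UMIs in such barcodes of the knockout naive library. The part of these barcodes in the levels of the kept nuclei was not tested.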

How the results depend on the processing

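The C1q log2 ratio of knockout naive to wild-type naive ranged widely between settings. Against single markers it ran from -0.42 to 0.59, above 0 for 4 of 8. In the other settings given here it was below 0. Ratios are for microglia-like nuclei, except that those over all kept nuclei, here and below, take in nuclei of every class. It was -1.10 in nuclei with at least 1000 UMIs and 500 genes, -1.16 with predicted doublets kept, -1.02 with nuclei taken by marker UMIs in place of clusters, -0.90 per nucleus, -1.00 thinned to 1000 UMIs, -0.44 over all kept nuclei, -0.0095 per microglia marker UMI and -0.072 per UMI of microglia-enriched genes. In SNI libraries knockout to wild type was 0.70 with doublets kept and 0.93 over all kept nuclei. SNI to naive in wild type was -0.44 with doublets kept, 0.33 per nucleus, 0.19 thinned, 0.82 over all kept nuclei, 0.62 per marker UMI and 0.66 per enriched UMI. In the knockout it was 1.25 in the nuclei of higher depth, 1.07 by marker UMIs, 1.26 thinned, 2.19 over all kept nuclei, 0.75 per marker UMI and 0.76 per enriched UMI.

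Set against its ratios in astrocyte-like nuclei, C4b moved in 1 setting. Taken over all kept nuclei, whatever their class, SNI to naive in the knockout was 1.22. In oligodendrocyte-like nuclei of higher depth and thinned, its ratios were 1.65 and 1.845 (knockout to wild type, naive), -0.67 and -0.46 (the same, SNI), 2.61 and 2.64 (SNI to naive, wild type) and 0.29 and 0.33 (SNI to naive, knockout).

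Signs turned for single members. Knockout naive to wild-type naive, per marker UMI and per enriched UMI, was 0.34 and 0.28 for C1qa, 0.14 and 0.076 for C1qb, 0.15 and 0.089 for Fcer1g and 0.092 and 0.030 for P2rx4. SNI to naive in wild type was 0.52 over all kept nuclei, 0.15 per marker UMI and 0.19 per enriched UMI for C1qc, and 0.65 over all kept nuclei for Tyrobp. The cause of these shifts was not tested.

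Counts of members past the rule moved too. Apart from the marker and enriched scales, no share over all genes is given for these settings, so their counts are not a result about the members. Per enriched UMI, 71.3% of all genes were higher between naive libraries, 51.1% after injury in wild type and 0.842% after injury in the knockout. After injury in wild type 0.601% were lower on that scale. Between naive libraries 1 was higher in the knockout per nucleus, per marker UMI and per enriched UMI and 2 over all kept nuclei, and 3 were lower thinned, 1 over all kept nuclei and 0 per marker or enriched UMI. Knockout to wild type after SNI gave 1 higher in nuclei of higher depth, 8 with doublets kept, 0 thinned and 7 over all kept nuclei. SNI to naive in wild type gave 2 higher per nucleus, 5 over all kept nuclei and 3 per marker or enriched UMI, and 1 lower in nuclei of higher depth, per nucleus, per marker UMI and per enriched UMI, 0 thinned or over all kept nuclei and 2 at 2-fold. SNI to naive in the knockout gave 5 higher in nuclei of higher depth, 3 thinned, 4 per marker UMI and 5 per enriched UMI.

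The share of C1q UMIs in microglia-like nuclei of the knockout SNI, wild-type SNI, knockout naive and wild-type naive library was 9.57%, 7.93%, 7.94% and 9.94% in nuclei of higher depth, 19.2%, 16.8%, 14.5% and 28.0% with doublets kept, 15.8%, 15.1%, 12.6% and 22.6% at a clustering resolution of 0.5, and 9.64%, 8.35%, 8.56% and 11.97% thinned. With each library clustered alone it was 15.1%, 14.9% and 12.8% in the first 3, and by marker UMIs 11.5%, 11.1% and 6.11%. No paired analysis was possible because each group is 1 library with no replicate.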
